A study of Homo sapiens with 61 samples.

Results

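In wild-type (WT) U2OS cells, 5601 regions of the genome carried a reproducible H3K4me3 peak 1 h after UV irradiation and in no other group of the series. They are 1.98% of the 282418 regions obtained by merging all H3K4me3 peaks. The regions were selected on the measured peaks: overlapping or touching peaks of the 18 H3K4me3 lists were merged, a region was called robust in a group when at least 2 of its 3 libraries held a peak there, and regions robust in WT cells at 1 h alone were kept. Presence or absence of H3K4me3 at these members is therefore the criterion and not a finding, and all H3K4me3 values are given as a description without a test.

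U2OS is a human osteosarcoma cell line. WT cells and ASH1L-/- cells, made with CRISPR/Cas9 and isolated as single colonies, were left without UV or received 20 J/m2 of UV-C and recovered for 1 h or 3 h. Each of the 6 groups had 3 H3K4me3 libraries with input controls, and 3 XPC libraries (4 for WT cells without UV), called against XPC immunoprecipitates of XPC-/- cells. All samples, controls included, were treated with a DNA repair mix before library preparation. A difference between genotypes cannot be told apart from a difference between the isolated colonies. The labels call the libraries biological replicates.

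Trimethylation of lysine 4 on histone H3 marks the start sites of active genes, where it is written mainly by the MLL and SETD1 complexes, and ASH1L is a SET-domain methyltransferase of the trithorax group. XPC is the sensor that opens global-genome nucleotide excision repair at helix-distorting lesions. UV-C joins neighbouring pyrimidines in the same strand, most often at TT. H3K4me3 outside promoters is usually weak, so the level of each peak is given beside its presence.

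As a check of the cell type, the promoters of the mesenchymal genes COL1A1, VIM, RUNX2, FN1, SPARC and PRRX1 held a peak in 18 of 18 H3K4me3 libraries, while COL1A2 and TWIST1 held none. The blood genes PTPRC and CD3E held none. Markers of other cell types were mixed: of the epithelial genes EPCAM held a peak in 18 libraries, KRT5 in 4 and CDH1 in 0, of the liver genes APOA1 in 16 and ALB in 0, and the neuronal genes SYP and RBFOX3 in 18. The lists held 72984 to 142688 peaks each.

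Short stretches of sequence show how far members differ at the base level. The first 3 come from members with a high fold enrichment among those found in all 3 WT 1 h libraries and nowhere else, and the last 2 are a promoter and an intronic member of lower GC content, chosen after their values were seen. Each stretch is 120 bases of hg38 centred on the summit of the strongest WT 1 h peak, with CG dinucleotides in capitals.
KCTD16-distal, chr5:144598807-144598926, + strand: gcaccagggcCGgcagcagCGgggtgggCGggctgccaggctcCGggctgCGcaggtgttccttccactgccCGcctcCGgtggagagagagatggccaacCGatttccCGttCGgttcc
SOX4-distal, chr6:21423635-21423754, + strand: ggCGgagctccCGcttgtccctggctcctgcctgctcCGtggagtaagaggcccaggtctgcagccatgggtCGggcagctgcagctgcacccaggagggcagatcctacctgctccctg
MTG1 intron, chr10:133415749-133415868, + strand: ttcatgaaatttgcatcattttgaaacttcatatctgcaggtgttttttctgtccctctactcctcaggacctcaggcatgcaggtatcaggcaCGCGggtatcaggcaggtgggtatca
DMBT1 promoter, chr10:122561614-122561733, + strand: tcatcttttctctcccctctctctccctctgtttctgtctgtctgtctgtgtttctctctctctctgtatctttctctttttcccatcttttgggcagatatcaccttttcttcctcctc
PRRX1 intron, chr1:170708653-170708772, + strand: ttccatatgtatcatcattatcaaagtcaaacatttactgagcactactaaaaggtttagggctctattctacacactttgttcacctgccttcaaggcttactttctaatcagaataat
The stretches distal to KCTD16 and SOX4 had a GC content of 70.8% and 68.3% and held 10 and 4 CG dinucleotides. The stretches in MTG1, at DMBT1 and in PRRX1 had a GC content of 46.7%, 44.2% and 34.2% and held 2, 0 and 0. TT or AA, which is TT on the opposite strand, occurred 7 and 2 times in the first pair and 16, 20 and 25 times in the others.

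The members were weak peaks. In WT cells at 1 h, replicate 1 held a peak at 4017 members (71.7%), replicate 2 at 3312 (59.1%) and replicate 3 at 4786 (85.4%). The median member peak had 14, 15 and 16 reads at its summit in replicates 1, 2 and 3, over a control level of 4.18, 4.37 and 4.86 reads. The fewest reads of any peak in these lists were 9, 9 and 10, so the typical member lay a few reads above the smallest peak that could be called. Averaged over the libraries holding a peak, fold enrichment over input had a median of 2.72 (interquartile range 2.48 to 2.98), against 3.45 for the 81009 regions robust in WT cells at 1 h. Of these, 22029 reached a fold enrichment of 5, but only 2 members did.

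**Figure D1:**
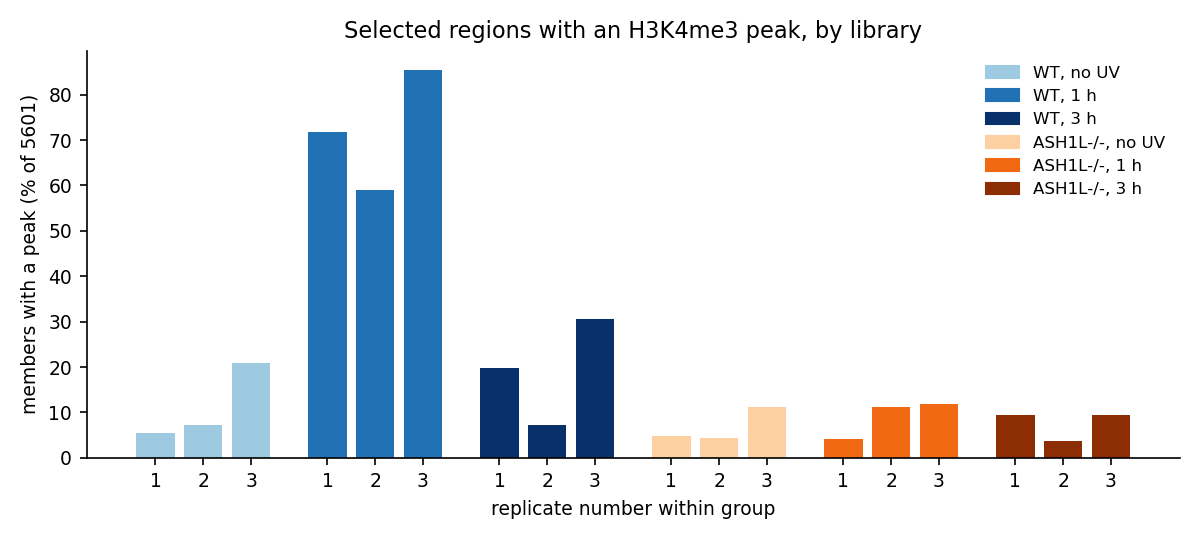
Share of the 5601 selected regions (y axis, percent) with an H3K4me3 peak in each of the 18 libraries, 1 bar per library. By the selection rule the 3 WT 1 h libraries are high (59.1% to 85.4%), and the other 15 lie between 3.80% and 30.5%, the highest being replicate 3 of WT at 3 h.

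Few members were found by all 3 WT 1 h libraries. A peak in all 3 was present at 913 members (16.3%), and the remaining 4688 had 2. The pair of replicates 1 and 3 accounted for 2289 (40.9%), replicates 2 and 3 for 1584 (28.3%), and replicates 1 and 2 for 815 (14.6%). Replicate 3, which had the longest list (142688 peaks) and the highest control level (5th percentile 4.40 reads), thus took part in most members. Without replicate 1, 2 or 3, the rule kept 2534, 3241 or 1782 regions, because both remaining libraries then had to hold a peak.

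Absence elsewhere was often partial. A single WT library at 3 h held a peak at 3210 members (57.3%), and a single WT library without UV at 1883 (33.6%). Single peaks in ASH1L-/- cells occurred at 1123 members without UV (20.0%), at 1525 at 1 h (27.2%) and at 1263 at 3 h (22.5%). No ASH1L-/- library held a peak at 2889 members (51.6%), and none of the other 15 libraries did at 1097 (19.6%). Without replicate 1, 2 or 3 of WT at 3 h, 8380, 6840 or 8510 regions met the rule. Both remaining libraries then had to hold a peak for a region to be excluded. Across the threshold, 2 strong members with a single peak in each of the other WT groups were an intergenic region of chromosome 9 (hg38, chr9:63980000-63980305, fold enrichment 5.18) and one at the promoter of BCAS1 (chr20:54067857-54069096, 4.42). The BCAS1 region was stronger in a WT library at 3 h (6.84, against 5.00 and 3.83 at 1 h). It also had a single peak in each ASH1L-/- group. The chromosome 9 region had a peak in 1 ASH1L-/- library at 1 h (4.59) and in 1 at 3 h (4.07). Just outside, a region at the promoter of ROPN1B (chr3:125968743-125969003, 4.86) and an intergenic region nearest to FGFRL1 (chr4:1043341-1044703, 4.65) failed because 2 libraries of 1 ASH1L-/- group also held a peak.

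The other groups had regions of their own under the same rule. There were 3251 regions robust in WT cells without UV alone, 11538 in WT cells at 3 h alone, and 4985, 3584 and 6224 in ASH1L-/- cells without UV, at 1 h and at 3 h alone. A further 5808 regions were robust in WT cells at both 1 h and 3 h and in no other group. The unirradiated groups thus also had sets of their own, of 3251 and 4985 regions.

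**Figure D2:**
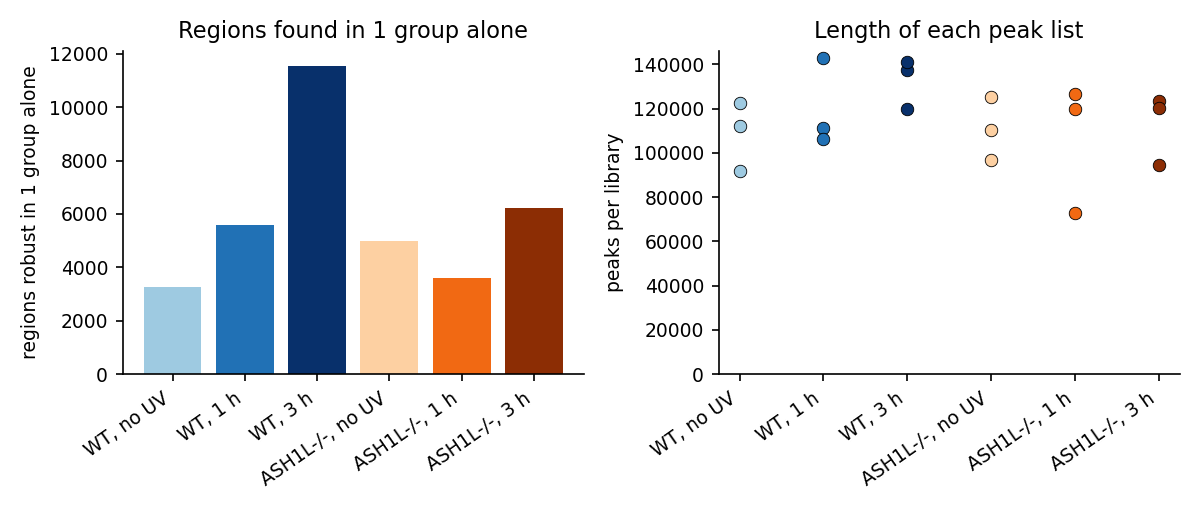
Left, number of regions robust in 1 group alone (y axis) for each of the 6 groups; right, number of peaks in each library (y axis), 1 point per library. WT at 1 h has 5601 such regions, between the 3251 of WT without UV and the 11538 of WT at 3 h, and the shortest list of WT at 3 h has 119986 peaks.

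Most members lay away from promoters. They comprised 3062 intergenic regions (54.7%), 2362 in gene bodies (42.2%) and 177 at promoters (3.16%), here the 2 kb on either side of a coding gene's start site. Among all merged regions these shares were 56.4%, 37.9% and 5.70%. The promoter share of members was above that of the regions of WT at 3 h alone (1.68%) and of ASH1L-/- at 1 h alone (79 of 3584). It was not below that of all merged regions without WT 1 h replicate 3, where it was 6.23%. Without replicate 1 or 2 it was 3.87% or 3.33%. Both remaining libraries then had to hold a peak, so the part of replicate 3 itself was not tested. The median distance of members to the nearest start site was 81.1 kb, against 95.6 kb for all merged regions. Members had a median length of 578 bp (207 to 2664 bp), against 434 bp for all merged regions, 589 bp for the regions of WT at 3 h alone and 524 bp for those of ASH1L-/- at 1 h alone. A region robust in unirradiated WT cells lay within 1 kb of 20.9% of members, and the median distance of members to one was 6.49 kb. These values were 20.6% and 7.12 kb for WT at 3 h alone, and 22.3% and 7.87 kb for ASH1L-/- at 1 h alone.

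Members were spread over all 23 chromosomes. They made up 1.40% of the regions of chromosome 8 at the lowest and 3.04% of those of chromosome 13 at the highest. Within 5 Mb of a chromosome end lay 15.1% of members, 10.1% of all merged regions, 18.6% of the regions of WT at 3 h alone and 7.78% of those of ASH1L-/- at 1 h alone. Of 2888 segments of 1 Mb, 48 held 10 or more members, and these held 13.1% of all members and 5.54% of all merged regions, a difference in the direction that picking them by their members fixes. The fullest segments were those overlapping LRFN2 on chromosome 6 (35 members of 524 regions), NPHP4 and KCNAB2 on chromosome 1 (31 of 456), and PRDM16 among other genes on chromosome 1 (29 of 295). These counts are for the whole segment and not for the named genes.

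Long genes held the most members. RBFOX1, a neuronal splicing regulator of 2474 kb, held 39, PTPRT, a receptor tyrosine phosphatase gene of 1117 kb, held 26, and the ion channel gene ASIC2 held 24. A member was found in 56.5% of genes over 500 kb and in 2.21% of genes up to 10 kb. Per merged region the shares hardly differed with gene length, from 1.89% to 2.08% over 5 length classes. PRDM16, a zinc-finger regulator with a methyltransferase domain, stood higher, with 24 of its 209 regions (11.5%), as did TNR with 15 of 158 (9.49%), NTM with 10 of 107 (9.35%) and LRFN2 with 12 of 130 (9.23%). These genes were picked for their counts and have no test.

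Genes of the damage response and of chromatin were looked at by list. Of 19970 protein-coding genes, 1869 (9.36%) had one in the gene or its promoter window. Of 28 immediate early genes, which are transcribed within minutes of a stimulus, only DUSP6, a phosphatase of ERK, had one, and none of 27 p53 targets or of 21 NF-kB and inflammatory genes did. Of 35 nucleotide excision repair genes, ERCC1, part of the nuclease that cuts 5′ of the lesion, had one. Of 25 genes of H3K4 methylation, ASH1L and FACT, the demethylase genes KDM5A and KDM5C had one each. HOX genes had 2 of 39 (HOXB3 and HOXB5, which share the region), and none of 50 cytosolic ribosomal protein genes had any. Replication and cell cycle genes had 3 of 33 (CDK6, MCM2 and MCM10). Most of these genes are short and hold few regions: members were 1 of 62 regions of the immediate early genes (1.61%), 0 of 99 of the p53 targets, 0 of 49 of the NF-kB and inflammatory genes, 1 of 151 of the repair genes (0.662%), 2 of 108 of the H3K4 methylation list (1.85%) and 0 of 90 of the ribosomal protein genes, against 2.02% over all coding genes. With so few regions, these counts are not read as a departure from that background.

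The lists with more members were those of long or mesenchymal genes. Synaptic and neuronal genes, with a median length of 971 kb, had members in 16 of 26, but 2.57% of their regions were members, near the share of all coding genes. Extracellular matrix and mesenchymal genes had members in 10 of 28, among them PRRX1, COL4A2, LOXL1, RUNX2 and SPARC, with 16 of their 362 regions (4.42%). In 1 of these genes a member lay in the promoter window. The shares of HOX genes (2 of 78, 2.56%) and of replication and cell cycle genes (5 of 187, 2.67%) were likewise near the 2.02% of all coding genes. The HOX count holds the same region for HOXB3 and again for HOXB5. These counts are small, the lists were written with earlier results known, and no share was tested.

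Members in these genes differed in how they were seen. The region in an intron of PRRX1, a mesenchymal homeobox gene (chr1:170708411-170709010), had fold enrichments of 2.82 and 3.52 in replicates 2 and 3 of WT at 1 h, 2.81 in a WT library at 3 h and 2.40 in an ASH1L-/- library at 3 h. The region near DUSP6 (chr12:89353214-89354056) had 24 and 29 reads over control levels of 11.0 and 12.1 at 1 h, and 27 reads over 8.10 in a WT library at 3 h. The ERCC1 region (chr19:45416419-45416961) had 25 and 24 reads at its summit in WT at 1 h (fold enrichments 2.49 and 1.93), 30 reads in a WT library at 3 h (2.09) and 27 in an ASH1L-/- library at 1 h, so the most reads were at 3 h. Each of these regions was found in 2 of the 3 WT 1 h libraries.

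The KDM5A region (chr12:292676-292989) and the COL4A2 region (chr13:110390081-110390765) lie where XPC peaks covered much less of the surrounding 5 Mb in unirradiated ASH1L-/- than WT cells (log2 ratio -3.80 and -2.92). The part of these segments in the result was not tested. Over all members, 20.8% lay in segments with a log2 ratio under -0.5, against 18.4% of all merged regions, and 6.68% lay in segments over 0.5, against 10.2%. The ERCC1 region lay in a segment of 1.13 and the one distal to KCTD16 in a segment of 0.69, and the region near FPR1 also lay above 0.5.

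A smaller set of 146 members (2.61%) had a peak in all 3 WT 1 h libraries and in none of the other 15. Fold enrichment there was no higher, with a median of 2.64 and a maximum of 3.92, but the median summit had 19.7 reads over a control level of 7.06. Intergenic regions made up 58.9% of the set, gene bodies 31.5% and promoters 9.59% (14 regions).

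The strongest of these was intergenic, 428 kb from the start site of KCTD16 (chr5:144598477-144599228). Replicates 1, 2 and 3 had 15, 17 and 26 reads at its summit, fold enrichments of 3.24, 3.90 and 4.61. The next, in an intron of MTG1, a mitochondrial GTPase gene (chr10:133415200-133416297), had 25, 19 and 20 reads and fold enrichments of 4.85, 3.65 and 3.25. Replicate 3 thus had the highest fold enrichment at the first and the lowest at the second. A region distal to SOX4 (chr6:21423494-21423890) had 18, 14 and 14 reads and a mean fold enrichment of 3.34. A region in an intron of PRDM16 (chr1:3313531-3314317) had 15, 13 and 17 reads and a mean of 3.27.

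Promoters among these 146 belonged to genes of varied tissue roles. Among the strongest was DMBT1, a mucosal scavenger receptor gene, with a region downstream of its start site (chr10:122561223-122561800) of 13, 16 and 18 reads. SST, which codes for the hormone somatostatin, had a region over its start site (chr3:187670002-187670478) with 20, 18 and 16 reads over control levels of 5.68, 5.48 and 6.07. COMP, a cartilage matrix gene (chr19:18789008-18789960), had 21, 20 and 23 reads and fold enrichments of 2.82, 2.68 and 2.64. ABCA3, a lipid transporter gene of lung surfactant (chr16:2341073-2341379), had 40, 38 and 41 reads over control levels of 13.7, 13.7 and 16.4. The others with the highest enrichment were near FPR1 and FPR2, FCHO1, PCDHA12, SLC35D3, RGS22 and RGS11. The SLC35D3 region lay in a 5 Mb segment with a log2 XPC ratio of -3.20 between the unirradiated genotypes, and its part there was not tested.

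Members were richer in GC than merged regions in general. In windows of 300 bases at the strongest summit, the median GC content was 49.7% (lower quartile 44.3%), against 46.7% for all merged regions, 51.3% for regions of WT at 3 h alone and 44.0% for those of ASH1L-/- at 1 h alone. The difference was also present among intergenic regions (49.7% against 46.0%) and gene bodies (48.7% against 46.3%), but not among promoters (65.3% for both). TT or AA occurred 13.3 times per 100 bases in members and 15.0 times in all merged regions. In the 146 the median GC content was 65.2% and TT or AA occurred 6.33 times per 100 bases.

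The GC content moved with the libraries that held the peak. It was 54.0% for members found in all 3 WT 1 h libraries, 53.3% for replicates 1 and 2, 49.0% for replicates 1 and 3 and 47.0% for replicates 2 and 3. It fell from 52.0% for members with no peak elsewhere to 44.7% for the 82 members with a peak in 5 other libraries. Libraries also differed: over their regions that were not constant across the series, the median was 50.7%, 49.7% and 47.3% in the WT 1 h replicates, 49.0% or above in WT at 3 h, 43.7% to 47.0% in WT without UV, 48.7% in each ASH1L-/- library without UV, 45.3% to 49.7% in ASH1L-/- at 1 h and 45.0% to 45.3% in ASH1L-/- at 3 h. The part of this library difference in the GC content of the members was not tested.

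**Figure D3:**
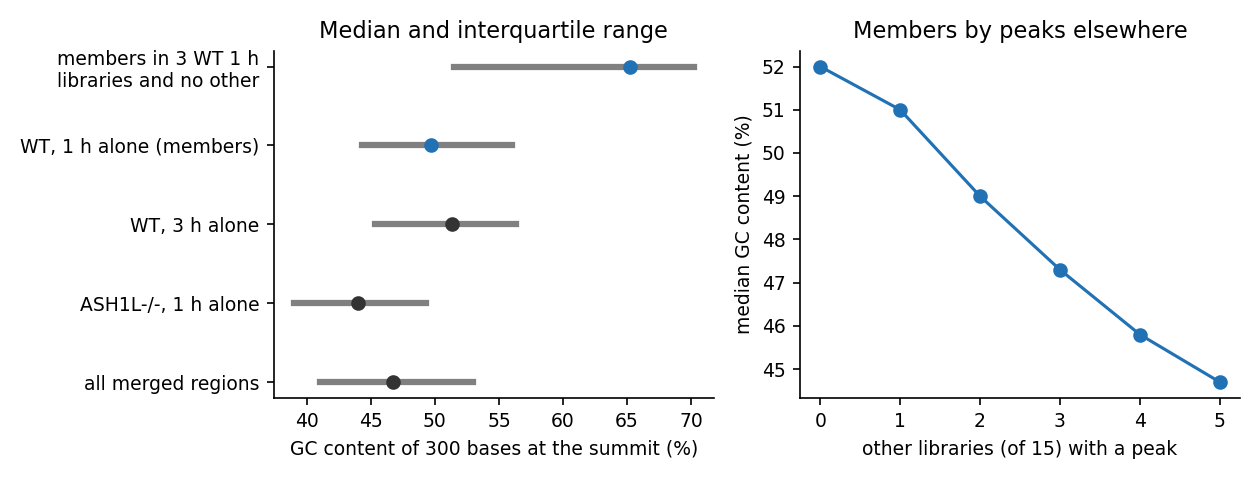
Left, GC content (x axis, percent) of 300 bases at the summit in 5 sets of regions, the point being the median and the bar the interquartile range; right, median GC content (y axis, percent, not starting at 0) of members by the number of other libraries with a peak there (x axis). The members sit at 49.7% against 46.7% for all merged regions, the 146 at 65.2%, and the right panel falls from 52.0% to 44.7%.

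Of 4 short motifs searched on both strands of the same windows, the GC box GGGCGG was found in 12.5% of members and 8.60% of all merged regions, and in 34.2% of the 146. The AP-1 motif TGANTCA was found in 10.8% and 9.78%, the ETS motif CCGGAAG in 91 members and 3683 of all 282408 windows, and the CRE motif TGACGTCA in 0.250% and 0.135%. No motif contains another, and a match is a description of the letters alone.

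XPC peaks are a measure that the selection did not use. They were weak calls: the median −log10 p of a list ran from 1.20 to 1.63. A −log10 q over 1.3 was reached by 2.24% of the peaks in replicate 1 of WT without UV. In every other list it was reached by 0.0054% of the peaks or fewer. In each of the 19 lists, XPC peaks covered a larger share of the members than of their flanks, which ran from 2 kb to 10 kb on each side. The log2 ratio of the shares was 0.59 ± 0.201 (mean ± SD, n = 19 lists), from 0.14 to 1.04, and for all merged regions it was 0.62. The number of XPC peaks was the same, 500000, in 17 of the lists, so shares of the genome were not compared between groups.

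**Figure D4:**
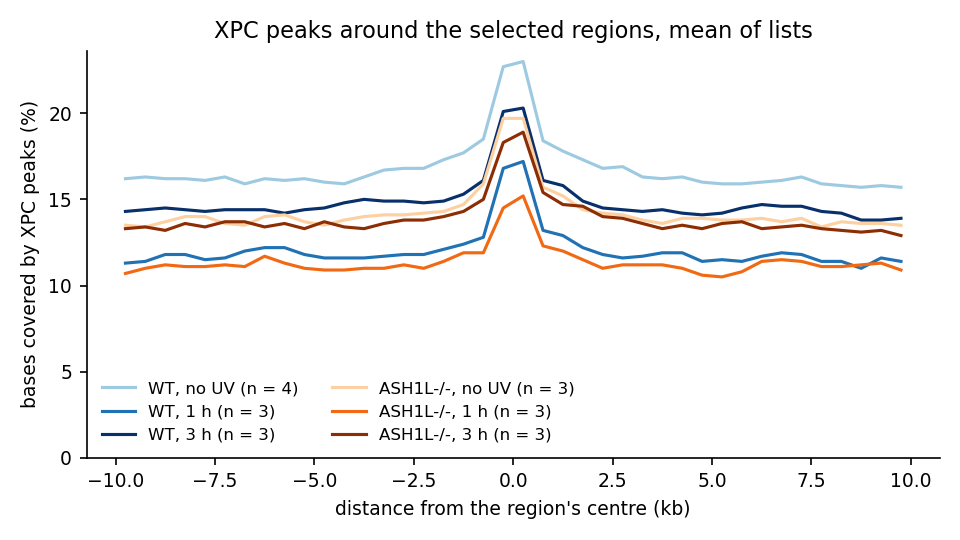
Share of bases covered by XPC peaks (y axis, percent, mean of the lists of a group) by distance from the centre of the selected regions (x axis, kb), 1 line per group. All 6 groups rise at the centre, to 22.7% in WT without UV and 16.8% in WT at 1 h just left of it, from 16.2% and 11.3% at the left edge.

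No difference in XPC enrichment between irradiated and unirradiated cells was detected at the members beyond the spread of the lists. In WT cells without UV the log2 ratio was 1.04, 0.44, 0.54 and 0.14 in replicates 1 to 4, at 1 h it was 0.74, 0.37 and 0.88, and at 3 h it was 0.72, 0.57 and 0.57. The unirradiated lists spanned all the irradiated ones. The means were 0.64 ± 0.176 (SD, n = 6) with UV and 0.54 ± 0.372 (SD, n = 4) without, a difference of 0.10 (exact permutation test, two-sided, p = 0.571, adjusted over 4 tests 0.702). At 1 h alone the difference was 0.12 (exact permutation p = 0.686, where the smallest possible p was 0.0286). Over 5 Mb segments, deviations of same-numbered WT libraries without UV and at 1 h correlated at 0.35, 0.33 and 0.51. Differently numbered libraries were not compared, so these values do not settle whether the numbers pair the samples. With the replicate block, which leaves out replicate 4, the difference at 1 h was -0.01 (exact permutation p = 1.00, smallest possible 0.250).

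In ASH1L-/- cells the log2 ratio was 0.83, 0.46 and 0.55 without UV, 0.49, 0.63 and 0.47 at 1 h, and 0.75, 0.56 and 0.52 at 3 h. The groups overlapped, and the irradiated lists differed from the unirradiated ones by -0.04 (exact permutation test, two-sided, p = 0.702, adjusted 0.702). At 1 h alone the difference was -0.08 (exact permutation p = 0.70), and 3 lists against 3 could not give a p under 0.100. The UV changes of the genotypes differed by 0.14 (exact permutation p = 0.580, adjusted 0.702). Among irradiated lists, WT exceeded ASH1L-/- by 0.07 (exact permutation p = 0.465, adjusted 0.702). The WT change was -0.03 when replicate 4 without UV was left out, so its sign rested on that list. These p-values do not show that the groups are alike. Of the 19 lists, 1 of WT and 1 of ASH1L-/- at 1 h held no peak on chromosome X, and without that chromosome the differences were 0.10 in WT and -0.04 in ASH1L-/- cells.

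**Figure D5:**
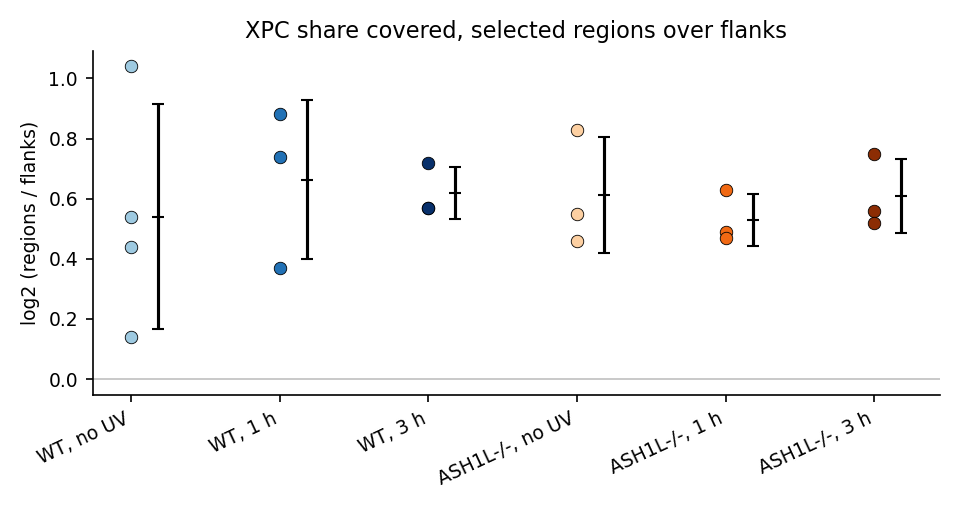
Log2 ratio of the share covered by XPC peaks in the selected regions to that in their flanks (y axis) for each list, 1 point per list, with mean ± SD beside the points. All 19 points lie above 0 and the 6 groups overlap; 2 points of WT at 3 h coincide at 0.57.

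Counted region by region, 589 members (10.5%) gained XPC at 1 h in WT cells, having an XPC peak in at least 2 of 3 lists at 1 h and in fewer than 2 without UV, against 8.20% of all merged regions. XPC was lost at 1614 members (28.8%), against 24.3%. In ASH1L-/- cells 765 members (13.7%) gained XPC, against 11.6%, and 1052 (18.8%) lost it, against 16.0%. All 4 shares lay above the background, with no test made of them. Gain and loss here are changes in weak peak calls and not measured changes in binding. The numbers of gains and losses cannot be set against each other, because the lists differed in breadth: XPC peaks covered 307 to 397 Mb in WT lists without UV and 197 to 280 Mb at 1 h, and 291 to 380 Mb and 242 to 311 Mb in ASH1L-/- lists. Members were also longer than merged regions in general. Among regions of 440 to 750 bp, the gained share was 11.0% of members and 9.69% of all merged regions in WT cells, and 12.9% and 13.1% in ASH1L-/- cells. With WT replicate 4 without UV left out, so that each group had 3 lists, 12.8% of members gained and 23.3% lost XPC in WT cells, against 10.2% and 18.3% of all merged regions.

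Single members varied in XPC. The SST and FCHO1 promoter regions each had an XPC peak in 1 of 4 WT lists without UV, 3 of 3 at 1 h and 0 of 3 at 3 h, and in ASH1L-/- cells in 1, 2 and 1 lists at SST and in 1, 2 and 0 at FCHO1. The DMBT1 region showed the opposite, with 4 of 4 WT lists without UV, 0 of 3 at 1 h and 3 of 3 at 3 h. In ASH1L-/- cells it had 1, 0 and 2 lists, so the count was also lowest at 1 h. The region distal to KCTD16 had 1, 1 and 0 WT lists and 1, 2 and 2 ASH1L-/- lists without UV, at 1 h and at 3 h.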

How the data were processed

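Of the 61 samples, 37 have a peak list used here (18 H3K4me3, 19 XPC). The 18 input and 6 XPC-/- samples served only as controls. Per the labels and methods, the authors trimmed 100-base single-end reads (Trim Galore 0.6.5), aligned them to hg38 without chromosome Y (BWA 0.7.17-r1188), filtered them (bedtools 2.29.2, Picard, SAMtools 1.7) and called peaks in each library with MACS2 2.2.7.1, narrow for H3K4me3 against input and broad for XPC against XPC-/- immunoprecipitates. Peak starts, ends and summits are deposited positions. The deposited fold enrichment is a ratio over the local control, and the deposited −log10 p and −log10 q describe 1 library against its control. The lowest −log10 p was 2.00 in the H3K4me3 lists and 1.00 in the XPC lists. No coverage or count table was used, so absence of a peak is not absence of signal.

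The members and gene lists were chosen with earlier results of these data known. Reads at a summit and the control level were recovered from fold enrichment and p, which matched for 100.00% of the 1864825 peaks with a −log10 p under 40 (tolerance 0.001). This step, the 5 Mb segments, the GC content per library, the 1 Mb segments and the genes with most members were added after seeing the data. Genes came from GENCODE 44, with 1 start site for each of 19970 protein-coding genes. Repeats were not analysed here, since the reference sequence is not masked. Regions were named by rule: among members in all 3 WT 1 h libraries and no other, the highest mean fold enrichment, overall and at promoters, then the strongest of each gene list, and regions next to the threshold. Some items that the rule or the marker list names are not reported here. XPC was compared by exact permutation of libraries, two-sided, with Benjamini-Hochberg adjustment over 4 tests (threshold 0.05), and the study's analysis of variance was not used. Each p-value is the share of arrangements of these libraries with a difference at least as large in size as the observed one. Merging, the rule, covered length, the recovery of reads and the exact test for a difference of means were tested on simulated data (Python 3.11.15, numpy 2.4.6, pandas 2.3.3, scipy 1.17.1, pysam 0.24.0). The other steps were not, among them the test of the difference of UV changes and the replicate block. Alternatives were stricter peaks, equal list lengths, other definitions of robust, other flanks and libraries left out.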

Additional observations from a re-analysis of the deposited data

How the results depend on the processing

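The number of regions gained at 1 h in WT cells alone kept within 1.5 times of 5601 under 18 of 24 alternatives. It was 3520 when only peaks enriched 3-fold or more were kept and 1097 when no other library could hold a peak. With 1 library left out it ranged from 1782 (without WT 1 h replicate 3) to 8510 (without WT 3 h replicate 3), and it was 2534 and 3241 without WT 1 h replicates 1 and 2. For members in all 3 WT 1 h libraries and no other, the intergenic share was 58.9%, the gene body share 31.5% and the promoter share 9.59%. Over all 5601 members the promoter share was 3.16%, and with a promoter window of 1 kb it was 2.41%. Without 1 WT 1 h library, 52.4% to 55.3% of the regions meeting the rule were intergenic. Gene bodies then held 40.5% to 44.3% and promoters 3.33% to 6.23%. The median GC content was 50.7% with equal numbers of peaks, and 49.0% to 53.7% without 1 WT 1 h library, alternatives chosen after seeing the data. The cause of these shifts was not tested.

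No XPC comparison passed the threshold under any alternative run (lowest unadjusted exact permutation p = 0.0714). Without 1 list the WT change ranged from -0.03 to 0.27, the ASH1L-/- change from -0.12 to 0.06, their difference from 0.01 to 0.31 and the irradiated difference from 0.02 to 0.12. With XPC peaks of a −log10 p of at least 2 these values were 0.46, -0.32, 0.78 and 0.77, and at the members in all 3 WT 1 h libraries and no other 0.61, -0.01, 0.62 and 0.28, larger than 0.10, 0.14 and 0.07 in WT, in the difference and in the irradiated lists, and none passed (unadjusted exact permutation p from 0.143 to 0.964). The sign turned for WT without replicate 4 of no UV (-0.03) and for ASH1L-/- without replicate 1 of no UV (0.06). Correlations of same-numbered XPC libraries ranged from -0.49 to 0.57. They exceeded 0.1 for each WT pair of no UV and 1 h and of 1 h and 3 h, but not of no UV and 3 h nor throughout ASH1L-/-, so the numbers were not taken to pair the samples in the comparisons of both times. With the replicate block, which leaves out WT replicate 4 without UV, the WT change was -0.03, the ASH1L-/- change -0.04, their difference 0.01 and the irradiated difference 0.07. At 1 h alone the blocked change, added after seeing the data, was -0.01 in WT and -0.08 in ASH1L-/- cells. With 14 to 16 reads at the median summit, a region short of a call by a few reads cannot be told apart from one without the mark.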
